A study of Mus musculus with 3 samples.

Results

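Retinoic acid handling was followed through 9 mouse genes of the 31053 in the count matrices, named by gene symbol with earlier results of these data known. They were Stra6, Rdh10, Dhrs3, Crabp1, Crabp2, Cyp26b1, Rarb, Rarg and Rxrg. All 9 were found, each with 1 Ensembl identifier. Retinoic acid is the active form of vitamin A. Retinol enters cells, is oxidised to retinaldehyde and then to retinoic acid, which small binding proteins carry and enzymes of the Cyp26 family destroy. In the nucleus it binds RAR receptors, which act as pairs with RXR receptors on DNA, and several genes of the pathway are themselves known targets of it. In the developing inner ear, graded retinoic acid is known to bear on the patterning of the sensory epithelium, and it is used in culture to promote hair cell differentiation.

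The organoids were grown from Lgr5+ cochlear progenitor cells of C57BL/6 mice, with no genetic change named, and 1 library of single cells was made from each of 3 stages. Expansion organoids were taken at passage 2, day 8, in medium with N2, B27, EGF at 20 ng/mL, bFGF at 10 ng/mL, IGF at 50 ng/mL, the GSK3 inhibitor CHIR99021 at 3, the ROCK inhibitor Y-27632 at 10 and LPA at 2.5 (units written as um). Day 5 and day 25 organoids had first been expanded in that medium and then differentiated with bFGF, BDNF, Shh, the TGF-beta receptor inhibitor A83-01 and retinoic acid, with LY4115775 present during the initial 5 days alone. Retinoic acid is thus listed for both differentiated stages and not for expansion. It was added together with BDNF, Shh and A83-01, and up to day 5 with LY4115775, while bFGF is listed for both media. EGF, IGF, CHIR99021, Y-27632 and LPA are named above for the expansion medium. The part of retinoic acid in a difference between stages cannot be told apart from those of the other factors. With 1 library per stage no difference between stages has a replicate check, and stage and library cannot be told apart.

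After filtering, 25617, 13202 and 6113 cells remained at expansion, day 5 and day 25, with 182699910, 131881455 and 72459464 unique molecular identifiers (UMIs, each one captured RNA molecule). Cells were put into 3 classes by single genes. Epcam-positive cells (at least 2 UMIs of the epithelial adhesion gene Epcam) numbered 14785, 6613 and 3691. Pou4f3-positive cells (at least 2 UMIs of the hair cell transcription factor gene Pou4f3) numbered 153, 324 and 1535. Otor-high cells (at least 20 of every 10000 UMIs from Otor, the gene of otoraplin, a secreted inner ear protein) numbered 2372, 4353 and 342. Cells that met none of these 3 rules made up 32.0%, 13.1% and 8.47% of those kept. Cell type markers, each list with the gene that defines its class, were counted at 5 CPM (UMIs of a gene scaled to the total of its class). In Pou4f3-positive cells 11, 12 and 12 of 12 hair cell markers reached it, and 7, 5 and 7 of 8 epithelial markers. In Epcam-positive cells 8 of 8 epithelial markers did. Otor-high cells had 6, 10 and 10 of 11 otic mesenchyme markers at that level, and Epcam-positive cells 5, 4 and 5. The count thus did little to set Otor-high cells apart in expansion. Col1a1, a defining fibroblast gene, was at 0 in 2 of the 3 Otor-high groups. These groups also held 618, 682 and 770 CPM over 4 endothelial genes, of which 2, 2 and 1 reached 5 CPM. Pou4f3-positive cells could also hold Epcam, and epithelial markers in them stood at a median of 48.9%, 17.1% and 8.01% of their level in Epcam-positive cells. The share of UMIs from ribosomal protein genes differed too, at 31.5%, 21.7% and 14.5% of all UMIs. Between 22 and 133 cell barcodes were shared by a pair of libraries, at most 0.92% of the smaller library.

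Levels below are UMIs of a gene summed over a class, in CPM, and the values in parentheses are 95% intervals that cover counting error only. The words higher and lower, rose and fell are kept for genes whose CPM + 1 differed at least 2-fold, given 5 CPM in either group and 20 UMIs over both. Summed over all cells, 4 of the 9 genes were higher and 3 lower at day 5 than in expansion, beside 24.6% of all genes tested that differed in either direction (16.7% higher and 7.91% lower). Crabp1, Crabp2, Rarg and Rxrg were the 4 higher genes, and Dhrs3, Rdh10 and Stra6 the 3 lower ones. From day 5 to day 25, 4 were higher and 3 lower (26.1% of all genes, 19.2% higher and 6.99% lower). Over the whole differentiation 3 were higher and 2 lower of 8 that could be tested (41.1% of all genes, 31.4% higher and 9.7% lower). In such sums over a library, a change in how many cells of a kind were present and a change in RNA per cell cannot be told apart. The values below are therefore given within classes. Each class is set by 1 gene and still holds a mix of cells that can differ between stages, such as the Epyc-high cells described below. Within a class, too, a change in that mix and a change in RNA per cell cannot be told apart.

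In Epcam-positive cells between expansion and day 5, all 9 genes passed the threshold, 5 upward and 4 downward, beside 25.1% of the 10524 genes tested (14.5% higher and 10.7% lower). The median log2 ratio of the 9 was 1.76, and that of all tested genes was 0.10. With 5 genes upward and 4 downward, that median is the value of Crabp2, the smallest of the 5 rises. It does not describe a shift of the whole set. The 4 lower genes were those of uptake, retinol oxidation and retinaldehyde reduction together with the receptor Rarb. The 5 higher ones were both binding proteins, the degrading enzyme and the receptors Rarg and Rxrg. The Crabp2 call was lost with a pseudocount of 5 CPM (log2 ratio 0.92), and those of Crabp2 and Rarg under a level bound of 20 CPM. The Stra6 call was lost in cells with UMIs of Xist, the RNA of the inactive X chromosome, and none Y-linked (-0.90). The Crabp1 call was lost in cells with Y-linked UMIs alone.

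**Figure D1:**
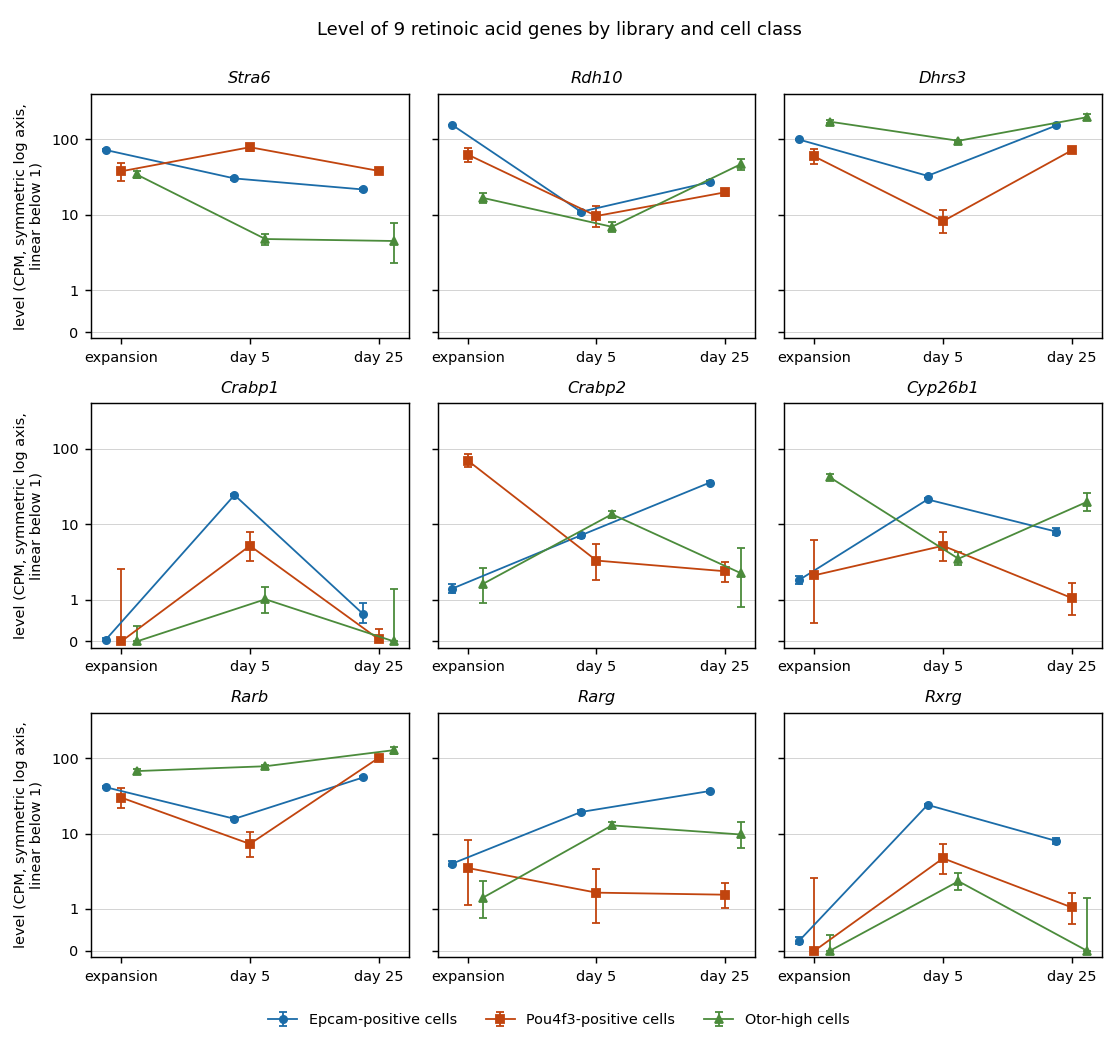
Level of each of the 9 genes (CPM, symmetric log axis, linear below 1) at expansion, day 5 and day 25, in Epcam-positive, Pou4f3-positive and Otor-high cells. Bars are 95% counting intervals of 1 library per stage. By level alone, Crabp1 and Rxrg peaked at day 5 in each of the 3 classes, and Rdh10 and Dhrs3 were lowest then. Outside Epcam-positive cells Crabp1 and Rxrg did not pass 5.18 CPM. In Pou4f3-positive cells 1 cell held 18 of the 22 Crabp1 UMIs of day 5. The Otor-high difference of Dhrs3 from expansion and the Pou4f3-positive difference of Rdh10 from day 25 were under the threshold.

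Sequence is shown for Rarb because its promoter window is the only 1 among those matched that holds the motif sought. That motif is a paired element to which RAR and RXR receptors are known to bind. Windows from 250 bases before to 50 bases after the transcription start were taken from RefSeq (GRCm38.p6) for 7 of the 9 genes, 14 windows in all. Each was searched on both strands for 2 copies, in the same orientation, of a half-site with 1, 2 or 5 bases between them. A half-site could be AGGTCA. It could also be GGTTCA, the letters of the left copy below, or AGTTCA, the letters of the right copy below. Last, GGGTCA was allowed. One window, that of Rarb, held such a pair. The stretch of 100 bases just before that start, at chr14:16575477-16575576 on the minus strand, is printed 5′ to 3′ with the paired letters in capitals.
Rarb: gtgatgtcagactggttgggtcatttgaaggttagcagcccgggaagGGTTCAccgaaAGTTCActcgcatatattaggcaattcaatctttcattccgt
The pair has 5 bases between its copies and lies 53 to 37 bases before the start. That start lies inside the gene, which spans chr14:16430839-16819156 on the minus strand. No window was matched for the 5′ end of the gene. A pair with that spacing was found in 32 of 32851 promoter windows of the same length (0.0974%), and a pair of any of the 3 spacings in 193 (0.588%). A match is a description of the letters and not of binding, and no match says only that these letters are not in the window.

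Stra6 encodes the membrane receptor that takes up retinol from its plasma carrier. The gene lies at chr9:58063788-58153996 on the plus strand of GRCm38. In Epcam-positive cells its level was 72.4 CPM (71.0 to 73.8) in expansion, 30.4 (29.3 to 31.5) at day 5 and 21.7 (20.4 to 23.0) at day 25. It was thus 2.38-fold lower (2.29 to 2.49) at day 5 than in expansion and 3.34-fold lower (3.13 to 3.56) at day 25. Otor-high cells showed a steeper decline, from 34.3 CPM (30.7 to 38.1) through 4.77 (4.01 to 5.64) to 4.49 (2.32 to 7.85). There Stra6 was 7.18-fold lower (5.87 to 8.82) at day 5 than in expansion.

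Pou4f3-positive cells went the other way for Stra6. Their level was 37.8 CPM (28.4 to 49.3) in expansion, 78.8 (70.6 to 87.7) at day 5 and 38.2 (35.4 to 41.2) at day 25. The day 5 level was 2.09-fold higher (1.56 to 2.83) than that of expansion, and a log2 ratio of 1.04 put it just past the threshold. It fell below the threshold under 7 of the alternatives tried, with the lowest log2 ratio, 0.02, where 1 UMI of Pou4f3 sufficed for the class. Against the Epcam-positive cells of the same day, Stra6 was 2.59-fold higher (2.31 to 2.91) in Pou4f3-positive cells at day 5, and it was the only one of the 9 genes called higher there, beside 6 called lower (36.1% of all genes, 18.7% higher and 17.4% lower). With the class taken from 1 UMI that call was lost as well (log2 ratio 0.91). At day 25 the ratio was 1.76 (1.601 to 1.94), under the threshold. A UMI of Stra6 was found in 38.6% of the 324 Pou4f3-positive cells of day 5 and, after thinning to 2000 UMIs per cell, in 10.6% (7.20 to 14.8) of the 274 deep enough. In the Otor-high cells of that day the thinned share was 1.07% (0.771 to 1.44). Median depth before thinning was 8815 and 5931 UMIs.

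Within the Pou4f3-positive class, Stra6 followed hair cell markers. At day 25 it stood at 42.7 CPM in the 1083 cells with a UMI of Slc26a5, which encodes prestin, the protein behind the electromotility of outer hair cells, and at 12.1 CPM in the other 452, a ratio of 3.53 (2.48 to 5.21). Cells with at least 5 UMIs of Ocm, which encodes the outer hair cell calcium buffer oncomodulin, had 2.05 times (1.47 to 2.94) the level of the rest. At day 5 the ratio was 1.91 (1.46 to 2.53) in the 135 cells with a UMI of Atoh1, the gene of the factor that starts hair cell formation. Cells with such a UMI were also deeper, with medians of 11452 against 4356.5 UMIs for Slc26a5 and 18179 against 3639 for Atoh1, and the part of depth in these ratios was not tested.

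Rdh10 encodes the retinol dehydrogenase known to supply most embryonic retinaldehyde. It lies at chr1:16105774-16133734 on the plus strand. In Epcam-positive cells it went from 155 CPM (153 to 157) in expansion to 10.97 (10.3 to 11.7) at day 5 and 27.1 (25.7 to 28.6) at day 25. This was a 14.1-fold lower level (13.3 to 15.1) at day 5, and a 2.47-fold higher one (2.28 to 2.68) at day 25 than at day 5. Pou4f3-positive cells had 63.0 CPM (50.6 to 77.4), 9.65 (6.92 to 13.1) and 19.9 (17.9 to 22.1), and the fall to day 5 was 6.53-fold (4.46 to 9.69). Epithelial markers in these cells stood at a median of 48.9% of their Epcam-positive level in expansion and 17.1% at day 5. The part of epithelial RNA in this fall was not tested.

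In Otor-high cells Rdh10 began far lower and ended higher. Its level was 16.7 CPM (14.3 to 19.5) in expansion, 9.27-fold lower (7.96 to 10.9) than in the Epcam-positive cells of that library. It then stood at 6.93 (6.00 to 7.97) and at 46.8 (39.0 to 55.8). At day 25 it was 2.80-fold higher (2.2003 to 3.55) than in expansion, a call lost under TMM and median of ratios scaling (log2 ratios of 0.78 and 0.79).

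Dhrs3 encodes the enzyme that turns retinaldehyde back into retinol and is known as a target that retinoic acid induces. It lies at chr4:144892827-144928209 on the plus strand. Epcam-positive cells held 99.8 CPM (98.1 to 101.4), 32.9 (31.7 to 34.1) and 153 (150 to 157). Pou4f3-positive cells held 59.5 (47.5 to 73.5), 8.24 (5.74 to 11.45) and 71.6 (67.8 to 75.6), and Otor-high cells 172 (164 to 180), 95.9 (92.3 to 99.5) and 197 (181 to 215). Every class thus had its lowest Dhrs3 level at day 5, and the part of retinoic acid in this was not tested.

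The fall of Dhrs3 to day 5 was 3.04-fold (2.92 to 3.16) in Epcam-positive and 7.22-fold (4.82 to 11.04) in Pou4f3-positive cells. In Otor-high cells the ratio of expansion to day 5 was 1.79 (1.69 to 1.91), under the threshold as reported but past it under TMM scaling (log2 ratio -1.22). From day 5 to day 25 Dhrs3 was 4.65-fold higher (4.46 to 4.86) in Epcam-positive cells and 8.70-fold higher (6.22 to 12.5) in Pou4f3-positive cells. The Otor-high ratio of 2.06 (1.87 to 2.26) for the same step lost its call under TMM scaling (log2 ratio 0.75). Expansion and day 25 did not differ past the threshold in any of the 3 classes, with ratios of 1.53 (1.49 to 1.58), 1.20 (0.966 to 1.52) and 1.15 (1.04 to 1.27).

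**Figure D2:**
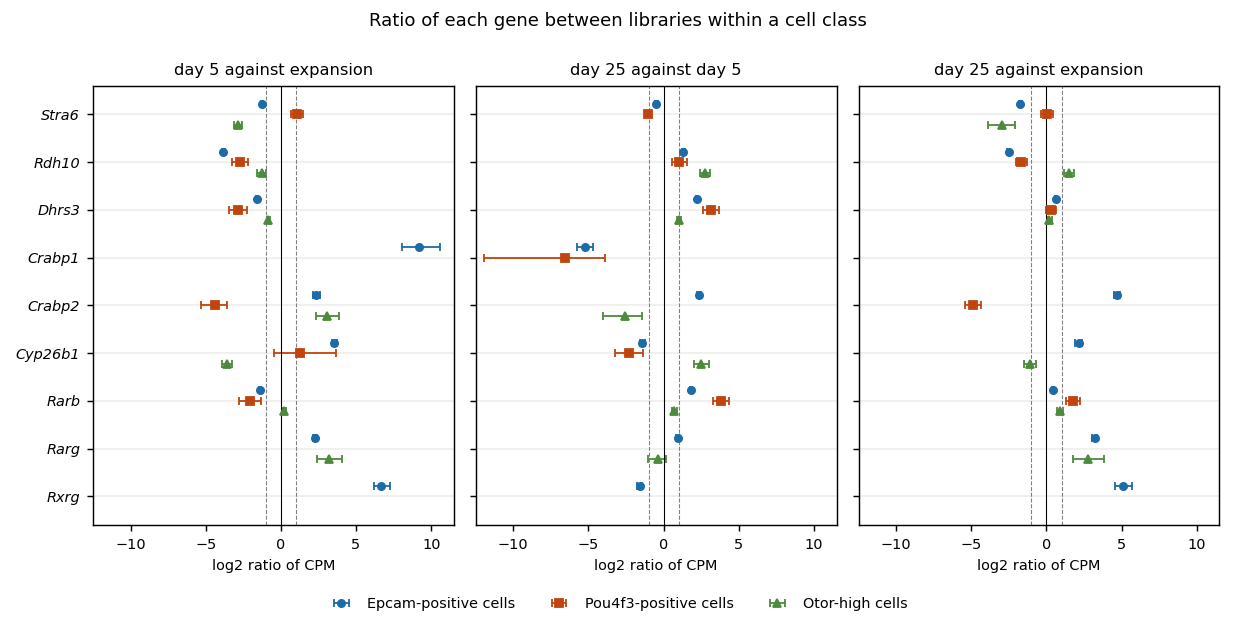
Log2 ratio of CPM between stages for each gene within each class, with 95% counting intervals, for genes tested and above 0 UMIs in both groups. Dashed lines mark 2-fold. Stra6, Crabp2 and Cyp26b1 have classes on opposite sides of the lines in the day 5 against expansion panel.

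Crabp1 encodes a cytosolic protein that binds retinoic acid and is known to mark cells of the greater epithelial ridge, the medial part of the cochlear epithelium. It lies at chr9:54764748-54773110 on the plus strand. Crabp1 was close to absent except at day 5. In Epcam-positive cells its level was 0.0424 CPM (0.0156 to 0.0923, from 6 UMIs) in expansion, 24.4 (23.4 to 25.4) at day 5 and 0.654 (0.447 to 0.923) at day 25. The day 5 level was 574-fold that of expansion (263 to 1567), with an interval that is wide because of those 6 UMIs, and the day 25 level was 37.3-fold lower (26.3 to 54.6) than that of day 5. Otor-high cells had 29 UMIs at day 5, each in a different cell, and 0 at the other stages. Their day 5 level of 1.01 CPM (0.677 to 1.45) was 24.1-fold lower (16.7 to 36.1) than in Epcam-positive cells.

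The Pou4f3-positive value of Crabp1 rested on 1 cell. At day 5 this class held 22 UMIs, 18 of them in a single cell, against 0 in expansion and 1 at day 25. Without that cell the day 5 against expansion log2 ratio was 0.96, and the call was lost.

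In the Epcam-positive cells of day 5 Crabp1 was concentrated in few cells. Of 6613 cells, 378 (5.72%) held at least 1 of the 2245 UMIs, and 1 cell held 78. The top 1% of cells, 67 cells, held 64.4% of the UMIs, where the same share of cells held between 12.1% (Rarg) and 35.9% (Crabp2) of the UMIs of the other 8 genes. Thinned to 2000 UMIs, the share of cells with a Crabp1 UMI was 2.35% (1.99 to 2.75) of Epcam-positive and 0.229% (0.105 to 0.434) of Otor-high cells. Whether the Otor-high UMIs are free RNA was not tested.

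**Figure D3:**
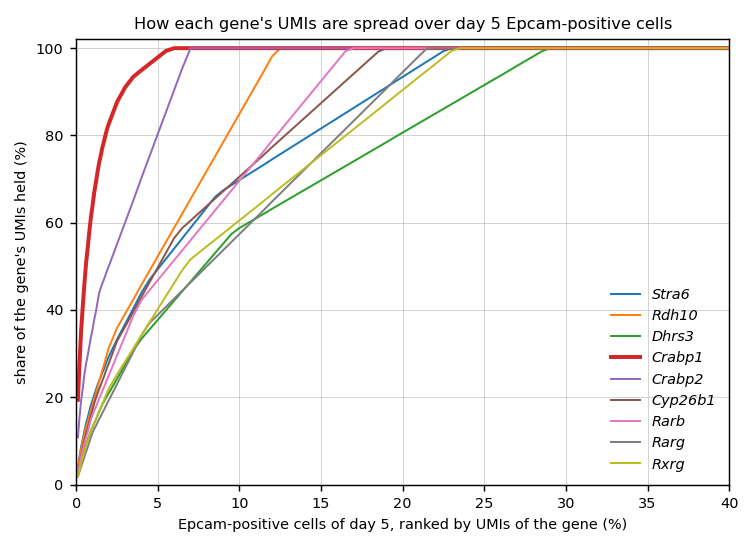
Share of each gene's UMIs (%) held by the given share of day 5 Epcam-positive cells (%), with cells ranked by UMIs of that gene. Crabp1 lies above the other 8 genes: its top 1% of cells hold 64.4% of its UMIs and all of them lie in 5.72% of cells.

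A threshold of 5 Crabp1 UMIs, chosen after these values were seen, singled out 123 Epcam-positive cells of day 5 that held 81.1% of the class's Crabp1 UMIs. This is a range of a count and not a cell type: 21 cells held 4 UMIs, 15 held 5 and 14 held 6. Tectb, which encodes a protein of the tectorial membrane, stood at 157 CPM in them against 36.4 in the other 6490 cells. Markers of the greater epithelial ridge did not move in 1 direction: Calb1 stood at 41.0 against 13.9 CPM, Tecta at 1933 against 1186, Epyc at 3082 against 2474, Fkbp9 at 317 against 272, Dcn at 1214 against 1240.4 and Fst at 12.0 against 39.9. Gjb2, a gap junction gene of supporting cells, stood at 349 against 798 CPM. Other genes with large ratios were Spink5, a protease inhibitor gene, at 73.7 against 6.41 CPM, and Adgrg2, which encodes an adhesion receptor, at 312 against 45.03. Bmp4, a ligand gene of the lateral cochlear epithelium, stood at 10.3 against 60.1 CPM, and the prosensory gene Sox2 at 13.8 against 58.4. Of the 9 genes, Stra6 was 2.18 times (1.89 to 2.50) as high in these cells. The median depth of these cells was 24026 UMIs against 6497.5 in the rest.

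Crabp1 UMIs also fell unevenly over cells of the sexes, which the organoids mix. Of the 123 cells, 80.5% held UMIs of Xist, the RNA of the inactive X chromosome, and none of the Y-linked Ddx3y or Eif2s3y, and 4.88% the reverse. In the other Epcam-positive cells these shares were 41.5% and 30.03%. Crabp1 stood at 47.2 CPM (1806 UMIs) in the 2790 Epcam-positive cells of day 5 with Xist alone and at 3.42 CPM in the 1955 with a Y-linked UMI alone, whose median depths were 6641 and 7942 UMIs. In the latter kind of cell the day 5 against expansion comparison had a log2 ratio of 2.09 and no call, since the level stayed under 5 CPM. Whether this follows sex, the animal or the organoid of origin cannot be told apart here. The mix itself differed between groups: Xist-only cells made up 12.3% of Pou4f3-positive cells at day 5 and 39.1% at day 25, and 44.3% and 71.9% of Otor-high cells.

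Crabp2 encodes the binding protein known to pass retinoic acid to RAR receptors. It lies at chr3:87948666-87953376 on the plus strand. In Epcam-positive cells it was higher at each later stage, with 1.40 CPM (1.21 to 1.61), 7.13 (6.60 to 7.70) and 35.7 (34.0 to 37.4). The ratios were 5.09 (4.34 to 6.00) from expansion to day 5 and 5.00 (4.57 to 5.48) from day 5 to day 25. Otor-high cells peaked at day 5 instead, with 1.62 (0.927 to 2.63), 13.6 (12.2 to 15.0) and 2.25 CPM (0.825 to 4.89), the last from 6 UMIs.

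Of the 9 groups of library and class, Crabp2 was highest in the Pou4f3-positive cells of expansion. Their level was 70.0 CPM (56.9 to 85.1), against 3.29 (1.80 to 5.53) at day 5 and 2.38 (1.72 to 3.20) at day 25. This was 50.0-fold (38.9 to 63.9) that of the Epcam-positive cells beside them and 21.2-fold (12.1 to 40.3) the day 5 level. The UMIs were spread over many cells: 56 of the 153 cells held a UMI and the cell with most held 6 of the 100. After thinning, 17.4% (11.7 to 24.5) of these cells held a Crabp2 UMI, against 0.328% (0.241 to 0.436) of the Epcam-positive and 0.405% (0.185 to 0.767) of the Otor-high cells of expansion, whose median depths were 7087, 6552 and 3769.5 UMIs. In the 103 of these cells with an Atoh1 UMI the level was 81.2 CPM and in the other 50 it was 45.1, a ratio of 1.80 (1.09 to 3.103). Crabp2 was the only 1 of the 5 testable genes called higher in Pou4f3-positive than in Epcam-positive cells of expansion, where Rdh10 was the 1 called lower (19.4% of all genes, 11.9% higher and 7.55% lower).

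Within Epcam-positive cells Crabp2 followed Epyc, which encodes the proteoglycan epiphycan and marks the greater epithelial ridge. Cells with at least 5 of every 10000 UMIs from Epyc had 6.57 CPM of Crabp2 against 0.992 in the rest of expansion, a ratio of 6.62 (4.86 to 8.95). The ratio was 1.98 (1.55 to 2.57) at day 5 and 4.89 (4.38 to 5.47) at day 25, where the 1469 Epyc-high cells stood at 69.0 CPM and the other 2222 at 14.1. At day 25 Crabp2 was also 3.19-fold (2.90 to 3.51) higher in the 563 cells with at least 2 UMIs of Gata2, a transcription factor gene. Those Gata2 cells had 3.25-fold (2.61 to 4.08) less Stra6, at 7.93 against 25.8 CPM. Median depths were 9278 and 8635 UMIs for the Epyc split and 13440 and 8431.5 for the Gata2 split.

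**Figure D4:**
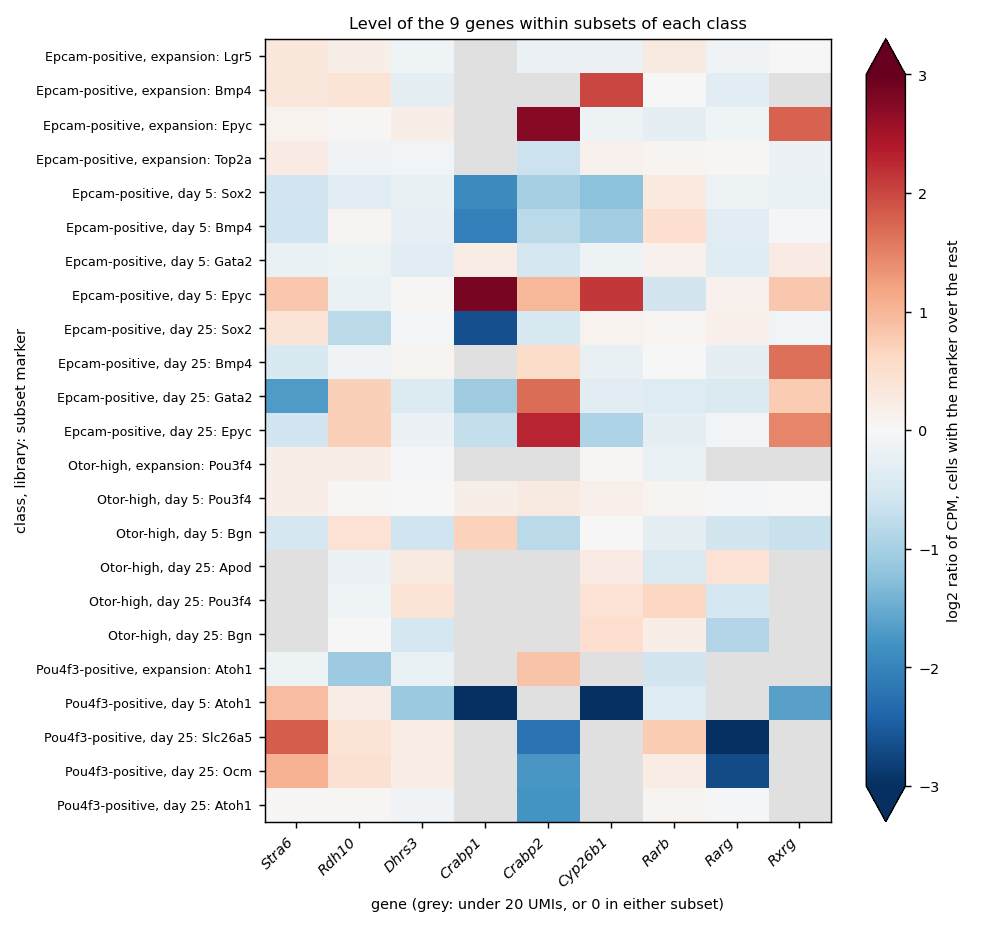
Log2 ratio of CPM of each gene between cells with a marker and the other cells of the same class and library, as colour from -3 to 3, with grey where fewer than 20 UMIs or a 0 left no ratio. In the Epyc rows the deepest red is that of Crabp1 at day 5 and of Crabp2 in expansion and at day 25, and Stra6 is red in the Slc26a5 row.

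Cyp26b1 encodes the cytochrome P450 that breaks down retinoic acid. It lies at chr6:84571414-84593908 on the minus strand. Its level changed in opposite directions in Epcam-positive and Otor-high cells. In Epcam-positive cells it went from 1.81 CPM (1.595 to 2.05) to 21.3 (20.4 to 22.3) at day 5, 11.8-fold higher (10.3 to 13.5). At day 25 it stood at 7.97 CPM (7.20 to 8.80), 2.67-fold lower (2.40 to 2.99) than at day 5. In Otor-high cells it went from 42.0 CPM (38.0 to 46.2) to 3.48 (2.84 to 4.24) at day 5, 12.0-fold lower (9.66 to 15.1), and then to 19.9 (14.9 to 26.0) at day 25, 5.70-fold higher (4.004 to 8.03).

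The class with more Cyp26b1 differed between expansion and day 5. Otor-high cells had 23.2-fold (19.8 to 27.2) the Epcam-positive level in expansion, 6.11-fold (5.00 to 7.55) less at day 5 and 2.49-fold (1.83 to 3.33) more at day 25. The day 25 call was lost with a pseudocount of 5 CPM (log2 ratio 0.94), a level bound of 20 CPM, classes from 1 UMI (0.75) and cells with Y-linked UMIs alone (0.82). Summed over all cells the day 5 to expansion ratio was 1.77 (1.66 to 1.89), under the threshold. That sum also takes in cells of no class. Those that met none of the class rules held 974 of the 1679 Cyp26b1 UMIs of expansion, at 33.2 CPM. At day 5 such cells held 47 of 2143, at 10.3 CPM. Pou4f3-positive cells had few UMIs, 3, 22 and 19, with levels of 2.10 CPM (0.433 to 6.13), 5.18 (3.24 to 7.84) and 1.05 (0.632 to 1.64). Among the day 5 Epcam-positive cells, the 5144 that were Epyc-high held 25.0 CPM of Cyp26b1 and the other 1469 held 5.72, a ratio of 4.38 (3.58 to 5.40). The ratio of Crabp1 over the same split was 7.24 (5.72 to 9.29), and median depths were 6748.5 and 6109 UMIs. At day 25 the Epyc split of Cyp26b1 lay the other way, with 5.15 CPM in Epyc-high cells and 9.79 in the rest, a difference under 2-fold.

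Rarb encodes RAR beta, a receptor known to be induced by retinoic acid. The element printed above lies before a start inside this gene, and the start used by the RNA counted here was not tested. The gene lies at chr14:16430839-16819156 on the minus strand. Epcam-positive cells held 41.3 CPM (40.2 to 42.3) in expansion, 15.7 (14.9 to 16.6) at day 5 and 55.7 (53.6 to 57.8) at day 25. The day 5 level was 2.62-fold lower (2.48 to 2.78) than that of expansion, and the day 25 level was 3.54-fold higher (3.32 to 3.77) than that of day 5. Pou4f3-positive cells had the same order, with 30.1 (21.8 to 40.53), 7.29 (4.96 to 10.4) and 101.0 CPM (96.4 to 105.8). The rise from day 5 to day 25 was 13.8-fold (9.72 to 20.4) there.

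Otor-high cells kept a high Rarb level at every stage. They held 67.5 CPM (62.5 to 72.9), 78.3 (75.1 to 81.6) and 128 (115 to 142), and no step between stages passed the threshold, although day 25 against expansion did where Otor-high began at 10 or at 50 of every 10000 UMIs (log2 ratios of 1.01 and 1.04) and in cells with Xist UMIs alone (1.01). Against Epcam-positive cells Rarb was 4.98-fold higher (4.66 to 5.32) at day 5 and 2.30-fold higher (2.05 to 2.58) at day 25. The day 25 call was lost among cells with Xist UMIs alone (log2 ratio 0.97) and among those with Y-linked UMIs alone (0.92). Over the 9 groups of library and class, the 3 with most Rarb were the Otor-high and Pou4f3-positive cells of day 25 and the Otor-high cells of day 5.

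Rarg encodes RAR gamma, a receptor common in epithelia. It lies at chr15:102234938-102257517 on the minus strand. In Epcam-positive cells Rarg was 4.002 CPM (3.68 to 4.35), 19.4 (18.5 to 20.3) and 36.7 (35.0 to 38.5), a 4.84-fold higher level (4.40 to 5.33) at day 5 than in expansion. The ratio of 1.90 (1.78 to 2.03) from day 5 to day 25 stayed under the threshold. Otor-high cells had 1.42 CPM (0.776 to 2.38), 12.9 (11.6 to 14.2) and 9.74 (6.36 to 14.3), 9.06-fold higher (5.33 to 16.7) at day 5 than in expansion.

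Pou4f3-positive cells had little Rarg at any stage. Their level was 3.50 CPM (1.14 to 8.16, from 5 UMIs), 1.65 (0.662 to 3.39, from 7) and 1.55 (1.03 to 2.24, from 28). This was 23.7-fold (16.4 to 35.8) below Epcam-positive cells at day 25. There it was 0.712 CPM in cells with a Slc26a5 UMI and 6.43 CPM in the rest, 9.03-fold lower (3.99 to 21.3). Rara, the remaining RAR gene, stood at 67.6 CPM in Pou4f3-positive and 44.0 in Epcam-positive cells of day 25, a difference under the threshold.

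Rxrg encodes RXR gamma, a partner of RAR receptors. It lies at chr1:167598384-167639623 on the plus strand. Epcam-positive cells held 0.233 CPM (0.161 to 0.328), 24.0 (23.0 to 25.1) and 7.99 (7.22 to 8.82). The day 5 level was 103-fold (73.1 to 150) that of expansion, and the day 25 level was 3.01-fold lower (2.70 to 3.36). Unlike Crabp1, with which it shared the day 5 peak, Rxrg was spread over 1535 of the 6613 Epcam-positive cells of day 5, and its top 1% of cells held 13.2% of its UMIs.

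Rxrg was scarce in the other classes. Otor-high cells held 0 UMIs in expansion and at day 25, and 67 at day 5, a level of 2.33 CPM (1.81 to 2.96). Against Epcam-positive cells that was 10.3-fold lower (8.07 to 13.3) at day 5, and at least 7.11-fold lower at day 25, computed with a floor of 3 UMIs for the class at 0. Pou4f3-positive cells held 0, 4.71 (2.87 to 7.27) and 1.05 CPM (0.632 to 1.64). At day 25 Rxrg stood at 21.6 CPM in the 153 Epcam-positive cells with at least 2 UMIs of Bmp4 and at 6.86 in the others, a ratio of 3.16 (2.44 to 4.04), with median depths of 18912 and 8792.5 UMIs.

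Read by class, the counts of genes past the threshold were as follows, each with the shares of all genes tested that were higher and lower. In Epcam-positive cells 4 of 9 were higher and 3 lower from day 5 to day 25 (23.6% of all genes, 16.8% higher and 6.74% lower), and 4 and 2 of 8 from expansion to day 25 (37.4%, 25.6% and 11.8%). In Pou4f3-positive cells 2 were higher and 4 lower of 7 from expansion to day 5 (26.4%, 16.6% and 9.76%). From day 5 to day 25 they were 2 and 3 of 6 there (27.9%, 17.8% and 10.1%), and over both steps 1 and 2 of 5 (41.1%, 26.9% and 14.2%). In Otor-high cells 2 were higher and 3 lower of 7 from expansion to day 5 (26%, 20.9% and 5.01%). From day 5 to day 25 they were 3 and 1 of 6 (22%, 15.9% and 6.12%), and over both steps 2 and 2 of 6 (43.7%, 36% and 7.74%). The shares over both steps are high for all genes. Whether the counts of the 9 genes stand apart from these shares, over both steps or over 1, was not tested. Only genes that reached the level bound in either group could be counted, so these counts leave out genes low in both.

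Between classes of a library, Otor-high cells differed from Epcam-positive cells in 1 higher and 2 lower genes of 5 in expansion (19.4% of all genes, 5.19% higher and 14.2% lower). The counts were 2 and 4 of 9 at day 5 (24%, 11.8% and 12.2%) and 2 and 4 of 8 at day 25 (27.2%, 13.9% and 13.3%). Pou4f3-positive cells at day 25 had no gene of the 9 called higher than in Epcam-positive cells and 5 called lower, namely Crabp2, Cyp26b1, Rarg, Rxrg and Dhrs3 (39.3% of all genes, 20.5% higher and 18.8% lower). The call of Dhrs3 was lost with called doublets kept (log2 ratio -0.96) and with classes from 1 UMI (-0.98). The highest ratios of that comparison were those of Rarb, 1.82 (1.71 to 1.93), and Stra6. At day 5 the levels of Crabp1, Cyp26b1 and Rxrg in Pou4f3-positive cells were 4.71-fold (3.101 to 7.53), 4.12-fold (2.71 to 6.58) and 5.11-fold (3.30 to 8.38) below those of Epcam-positive cells. These 3 calls were lost where 1 UMI sufficed for the classes (log2 ratios of -0.71, -0.69 and -0.93). Without the 1 cell that held 18 of the 22 Crabp1 UMIs, the log2 ratio of Crabp1 was -3.65 in place of -2.04. Epithelial markers in the same cells ranged from 11.6% to 393% of their Epcam-positive level with the median of 17.1% given above, and the part of RNA from epithelial cells in these 3 values was not tested.

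Levels over the 9 groups were also compared with those of 9277 genes that reached 20 CPM in a group, as a description. The genes closest to Rxrg were Nsg2 (Pearson r of 0.99 over the 9 groups), Rasgrf1 (0.98) and Angptl1 (0.98). Crabp1 was closest to Hyal1 (0.94), Rasgrf1 and Gon4l (both 0.93). Rarb and Dhrs3 both had Ltv1 among their closest genes (0.96 and 0.97). The closest gene was Creb3 for Rarg (0.97), Znrf3 for Rdh10 (0.96), C2cd4b for Stra6 (0.94), Slc3a2 for Crabp2 (0.88) and Pltp for Cyp26b1 (0.85). Among the 9 genes themselves the closest pairs were Dhrs3 with Rarb (0.89) and Crabp1 with Rxrg (0.87), and the most opposed was Crabp1 with Rarb (-0.72). The 9 points come from 3 libraries and share their depth and free RNA.

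The rest of the pathway was read through 6 lists with 53 genes. In Epcam-positive cells 5 of 24 testable genes were higher and 5 lower at day 5 than in expansion, beside 14.5% and 10.7% of all genes tested. At day 25 against expansion 8 were higher and 6 lower, beside 25.6% and 11.8%. The Aldh1a enzymes make retinoic acid from retinaldehyde, and all 3 of their genes that could be tested in Epcam-positive cells were lower at day 5 than in expansion. Aldh1a3 went from 766 CPM in expansion to 25.5 at day 5 and 60.9 at day 25 in Epcam-positive cells. It was 29.99-fold lower (28.8 to 31.3) at day 5 and 2.39-fold higher (2.26 to 2.52) at day 25 than at day 5, the same order as Rdh10. Aldh1a1 (61.7, 12.2 and 18.9 CPM) and Aldh1a7 (28.4, 2.30 and 2.82 CPM) were lower at both differentiated stages than in expansion.

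Aldh1a2 showed the reverse, and in Otor-high cells. There it went from 3.75 CPM to 41.6 and 99.3, an 11.1-fold (7.99 to 15.8) higher level at day 5 than in expansion and a further 2.39-fold (2.08 to 2.73) at day 25. Its level was 0.311, 0.825 and 0.327 CPM in Epcam-positive cells. Of the other 2 degrading enzymes, Cyp26c1 was at 0 in every group and Cyp26a1 did not pass 0.700 CPM in any. Cyp26b1 was thus the only gene of the family with a level over 1 CPM.

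**Figure D5:**
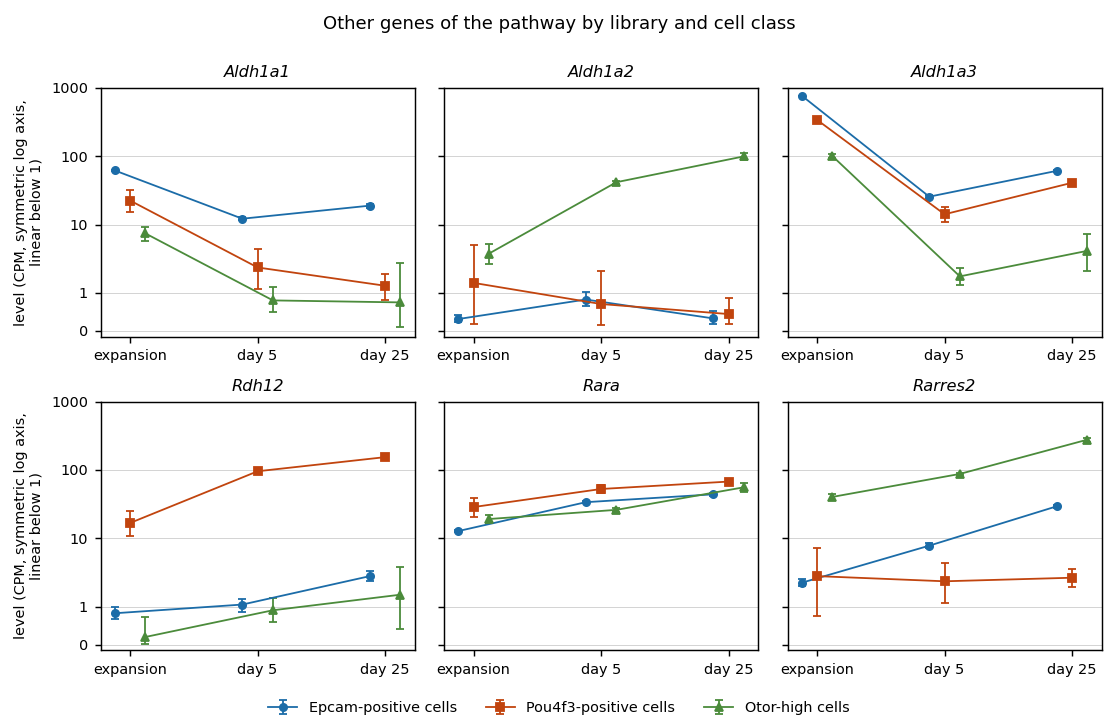
Level (CPM, symmetric log axis, linear below 1) of 6 further genes of the pathway by stage and class, with 95% counting intervals. Aldh1a3 was lowest at day 5 in all 3 classes, Aldh1a2 was over 5 CPM in Otor-high cells alone, and Rdh12 was over 5 CPM in Pou4f3-positive cells alone.

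Among 12 other genes of retinol oxidation and retinaldehyde reduction, Rdh12, known from photoreceptors, was called higher in Pou4f3-positive than in Epcam-positive cells at each stage. It stood at 16.8, 95.8 and 154 CPM there, against 0.827, 1.07 and 2.80 CPM in Epcam-positive cells, 55.0-fold higher (46.4 to 65.8) at day 25. Rdh11 and Rdh14 were also called higher there at day 25, 2.97-fold (2.59 to 3.40) and 2.44-fold (2.24 to 2.65). Rdh5 peaked at day 5 in each class, with 14.4 CPM in Epcam-positive, 7.29 in Pou4f3-positive and 9.44 in Otor-high cells.

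All 10 further receptors and partners were testable. Rara was higher at day 25 than in expansion in each class, 3.45-fold (3.24 to 3.67) in Epcam-positive, 2.36-fold (1.73 to 3.30) in Pou4f3-positive and 2.91-fold (2.33 to 3.63) in Otor-high cells. Fabp5, which encodes a fatty acid binding protein that can carry retinoic acid to another receptor, was lower over the same span in each, 13.9-fold (13.0 to 14.9), 26.1-fold (22.6 to 30.2) and 8.12-fold (6.87 to 9.66). Rxra was 4.36-fold higher (3.81 to 5.00) in Pou4f3-positive than in Epcam-positive cells at day 25, where Rxrg was lower.

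Of 18 textbook targets, 6 could be tested in Epcam-positive cells, and at day 25 against expansion 4 were higher and 1 lower, beside 25.6% and 11.8% of all genes tested. The 4 were Rarres2, the gene of chemerin, at 29.4 against 2.24 CPM, the transglutaminase gene Tgm2 at 79.8 against 6.82, and the transcription factor genes Bhlhe40 and Meis2. In Pou4f3-positive cells Rarres2 and Tgm2 stayed at 2.65 and 5.19 CPM at day 25, 11.1-fold (8.32 to 15.1) and 15.4-fold (12.5 to 19.0) below Epcam-positive cells. At day 5 Rarb and Dhrs3 were lower in Epcam-positive cells, while Rarres2 and Tgm2 were higher there, 3.49-fold (3.05 to 3.99) and 3.36-fold (3.11 to 3.63), so known targets did not move in 1 direction.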

How the data were processed

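The authors deposited 1 matrix of raw UMI counts per library (10x Genomics Single Cell 3' v3), made with Cell Ranger per the submitters' processing notes, whose version the file headers give as 3.0.1, except 3.1.0 in the day 25 library. The notes list GRCm38 and hg38, and gene identifiers were those of mouse. Annotation release and cell calling are not given in the sources used here. From these counts, barcodes with under 500 genes or over 20% mitochondrial UMIs were left out, then doublets called by Scrublet in scanpy 1.11.5 (8.50%, 4.68% and 2.41% against an expected 22.4%, 11.1% and 5.01%, so doublets remain). Median depth of kept cells was 4670, 5855 and 8475 UMIs. A cell that was Otor-high and also had 2 UMIs of Epcam or Pou4f3 was in no class, and a cell with both Epcam and Pou4f3 counted as Pou4f3-positive. UMIs were summed per class of at least 50 cells and divided by all UMIs. Intervals were exact Poisson for levels, exact conditional binomial for ratios and Clopper-Pearson for shares. Intervals and the floor of 3 UMIs cover counting error only. No test across samples was possible.

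The 9 genes, the pathway lists and the cell markers were chosen with earlier results of these data known. Named genes were the 9, every synthesis and breakdown gene, up to 4 genes per list and comparison with the largest ratios, and the 3 closest genes per member with at least 20 CPM in a group. Some genes of the lists are counted but not reported here by name. The genes named for cells with many Crabp1 UMIs, and the choice among the genes that the rule allows, were made after their values were seen. On simulated data for the day 5 against expansion comparison of all cells (31053 genes), 0 of 67 genes changed 1.5-fold, 67 of 67 changed 3-fold and 66 of 66 changed 5-fold were called. The same counts were found for day 25 against day 5 in Pou4f3-positive cells, where 2 of 10090 unchanged genes were called. Changed genes had at least 20 CPM and counting error alone, so these counts follow from the 2-fold threshold. They do not cover genes near 5 CPM or differences between libraries. Alternatives covered scaling, pseudocount, level bound, cell filters, class thresholds and thinning. Coordinates are from GENCODE M21 (GRCm38), and all 9 identifiers matched. Tools were Python 3.11.15, scipy 1.17.1, R 4.3.3 and edgeR 4.0.16 (for TMM factors).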

Additional observations from a re-analysis of the deposited data

Results flagged for a closer look

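Changes between stages past 2-fold in one class and past 2-fold the other way in another were found for 4 of the 9 genes, with each value below a difference between 2 log2 ratios of CPM + 1. With 1 library a stage, none of these differences was tested. From expansion to day 5, Crabp2 rose in Epcam-positive cells and fell in Pou4f3-positive cells (a difference of 5.81), and it also rose in Otor-high cells (6.52 from the Pou4f3-positive ratio). Over the same step Cyp26b1 rose in Epcam-positive and fell in Otor-high cells (6.25). Stra6 rose in Pou4f3-positive cells while it fell in Epcam-positive cells (2.27) and in Otor-high cells (3.65).

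From day 5 to day 25, Crabp2 rose in Epcam-positive and fell in Otor-high cells (4.34). Cyp26b1 did the reverse, rising in Otor-high cells while it fell in Epcam-positive (3.53) and Pou4f3-positive cells (3.81). The Pou4f3-positive fall rested on 22 UMIs at day 5 and 19 at day 25. Its call was lost with a pseudocount of 5 CPM (log2 ratio -0.75), under a level bound of 20 CPM and after thinning. It was lost as well with classes from 3 UMIs and without the cell with most UMIs. From expansion to day 25, Crabp2 rose in Epcam-positive and fell in Pou4f3-positive cells (8.33), and Cyp26b1 rose in Epcam-positive and fell in Otor-high cells (2.72). Both of these Cyp26b1 calls depended on the setting. The Epcam-positive log2 ratio was 0.93 with a pseudocount of 5 CPM and 0.99 with called doublets kept, and its call was lost under a level bound of 20 CPM. The Otor-high one was -0.92 with that pseudocount, -0.58 after thinning and -0.85 with Otor-high from 10 of every 10000 UMIs. Rdh10 rose in Otor-high cells while it fell in Epcam-positive (3.91) and Pou4f3-positive cells (3.05). The 3 stage comparisons share libraries, so these values are not independent of each other.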

How the results depend on the processing

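No paired analysis was possible because each stage is 1 library. The count of the 9 genes past 2-fold stayed within 1.5 times the reported one in 226 recounts under other settings and did not in 14. Under settings chosen after seeing the data it stayed so in 45 and did not in 1. These recounts take how many genes passed and not which. For single genes under the other settings, 1331 results stayed the same and 313 shifted by more than counting error. A call was lost in 94 and gained in 20. Raising the level bound to 20 CPM, which leaves fewer genes to test, gave 3 in place of 7 for day 5 against expansion in all cells and 4 in place of 7 for day 25 against day 5. The same bound gave 3 in place of 5 for day 25 against day 5 in Pou4f3-positive cells, 2 in place of 5 and 2 in place of 4 for the steps to day 5 and from day 5 to day 25 in Otor-high cells, and 3 in place of 5 for Pou4f3-positive against Epcam-positive cells at day 25. Thinning to 2000 UMIs, which leaves fewer UMIs, gave 4 for day 25 against day 5 in all cells, 3 in place of 6 for day 5 against expansion in Pou4f3-positive cells and 2 in place of 4 for day 25 against expansion in Otor-high cells. It gave 4 in place of 2 for Pou4f3-positive against Epcam-positive cells of expansion, where at most 10% mitochondrial UMIs gave 1 and classes from 1 UMI gave 1. Classes from 1 UMI gave 1 in place of 7 for the same classes at day 5. A pseudocount of 5 CPM gave 3 for day 25 against day 5 in Pou4f3-positive cells, and leaving out the cell with most UMIs of each gene, chosen after seeing the data, also gave 3. Cyp26b1 reversed from day 5 to day 25 in Pou4f3-positive cells with Y-linked UMIs alone (log2 ratio 0.33 against -1.59), also a setting chosen after seeing the data. The causes were not tested. Cells with Xist or with Y-linked UMIs alone were under 50 for some Pou4f3-positive groups, and 8 such comparisons were not run. Depth limits most the 153 Pou4f3-positive cells of expansion and the 342 Otor-high cells of day 25.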

Other observations

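In the Otor-high cells, 4 of the 6 testable textbook targets of retinoic acid were higher at day 25 than in expansion and 0 were lower (43.7% of all genes differed in either direction). Rarres2 stood at 40.4, 87.5 and 278 CPM in expansion, at day 5 and at day 25, and Bhlhe40, a gene of the circadian and hypoxia responses, at 12.2, 22.4 and 381 CPM. In Pou4f3-positive cells 2 of 5 testable targets were higher and 1 lower over the same span (41.1% of all genes).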
